A study of Equus caballus with 26 samples.

Results

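The 10 genes described here are expressed by the killing cells of the blood, natural killer (NK) cells and cytotoxic T cells. They are *NCR1*, *KLRK1*, *KLRD1* and *KLRB1*, which encode receptors, *GNLY*, *PRF1*, *GZMA*, *GZMB* and *NKG7*, which encode proteins of the killing granule, and *FASLG*, a death ligand. They are listed by name, by a rule that picks the genes without a measured value but reads the brightest probe of each. The rule was written with earlier results of these data known. All 10 were found among the 24415 gene names of a horse expression microarray. Of the 10, 6 were read under another name on the array, *GNLY* as NKL, *GZMA* as LOC100062497, *GZMB* as LOC100033969, *KLRB1* as JL625782, *KLRK1* as LOC100053963 and *NKG7* as LOC100062828. These names were matched through the RefSeq gene table, except LOC100033969, which was matched through the probe's description and accessions.

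RNA came from whole blood drawn into PAXgene tubes at 160 km endurance rides, at rest before the start (T0) and immediately after the end (T1). The study's methods name 3 French competitions. Which of them each horse rode in was not used here, and the ride stands below for any of them. In the experimental set, the same 3 geldings (horses 2, 32 and 41) gave an array at T0 and another at T1. In the validation set, 7 horses at T0 (3 females and 4 geldings) were compared with 13 other horses at T1 (3 females and 10 geldings), so 23 horses gave 26 arrays. No treatment other than the ride was labelled, the labels gave no age, and the breed was labelled only as other ("Autre"). The study's methods describe pure or part-bred Arabians. They state that most T0 horses of its validation set later failed a veterinary gate whereas its T1 horses completed the ride. That set and the study's experimental set held more horses than were read here, and the outcome of each of the 7 T0 horses was not used. Time and ride outcome thus cannot be told apart in the validation set, and the competitions may also differ between its times.

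Cytotoxic lymphocytes kill infected or malignant cells along a pair of routes. In the granule route, perforin (*PRF1*) opens membranes and granzymes enter the target and cleave its proteins. In the death receptor route, FAS ligand (*FASLG*) engages FAS on the target. NK cells decide whether to kill by weighing activating receptors such as NKp46 (*NCR1*) and NKG2D (*KLRK1*) against inhibitory ones, and hard exercise is known to change the numbers of these cells in the blood within minutes.

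A level is given throughout as log2 of the background-subtracted signal minus the 75th percentile of its array, so that level 0 is as bright as that percentile and each unit is a doubling. Levels of different probes depend on the probe and were not compared with each other. Between 60.4% and 75.4% of the probes of an array were well above background, and 9 of the 10 genes were well above background on all 26 arrays, whereas *FASLG* was on 22. In the validation set 1 T0 array stood apart. Horse 47 had the lowest level of 7 of the 10 genes at T0 and the lowest or highest level of several marker genes of other cells. The T1 array of horse 34 was scanned in 1 pass and held 431 saturated spots, none of them on these genes. In whole blood, fewer cytotoxic cells, less of an RNA per cell and more RNA from other cells cannot be told apart, since each level is relative to its array.

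Probe sequences are shown here because the identity of a gene rests on them. The probe named *GZMB* and that of LOC100033969 (described on the array as mast cell protease 1-like, with accessions of both genes) are near-identical 60-base probes, and capitals mark the positions at which they differ. *KLRB1* is known on this array only through an expressed sequence, and its probe is printed so that it can be identified.

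GZMB: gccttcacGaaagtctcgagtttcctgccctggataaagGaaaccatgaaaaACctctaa

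LOC100033969: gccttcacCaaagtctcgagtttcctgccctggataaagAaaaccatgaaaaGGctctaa

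KLRB1: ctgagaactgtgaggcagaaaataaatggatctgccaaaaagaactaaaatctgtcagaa

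Counted from 1 at the 5′ end of the *GZMB* probe, the substitutions are G9C, G40A, A53G and C54G, and 56 of 60 positions are identical. On the build that the array files name (EquCab1), the *GZMB* probe lies at chrUn:337935128-337935187 and the LOC100033969 probe at chrUn:179917735-179917794, both on the plus strand, and the *KLRB1* probe at chr6:36754067-36754126 on the minus strand. No gene annotation of that build was used here, so exons were not assigned. The RefSeq annotation of a Thoroughbred horse assembly lists *GZMB* and LOC100033969 as separate, neighbouring genes.

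After the ride, most of the cytotoxic genes were under-expressed in both sets. In the experimental set, 6 of the 10 were lower at T1 and none was higher (limma, Benjamini-Hochberg adjusted p under 0.05), where 3.95% of the 17490 gene names tested were lower and 6.16% higher (10.1% called in all). In the validation set, 6 were lower and 1, *NCR1*, was higher, where 23.9% of the 17404 gene names tested were lower and 20.3% higher (44.2% called in all). The 5 genes *KLRK1*, *PRF1*, *GZMA*, *GZMB* and *NKG7* were lower in both sets, as were 3.82% of the gene names tested in both. The median change of the 10 was −1.47 on the log2 scale in the experimental set, against 0.03 over all gene names tested, and −1.03 in the validation set, against −0.07.

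In each of the 3 horses of the experimental set, 8 of the 10 genes were lower at T1, as were 25.5% of all gene names tested, and for 5 genes every T1 array lay below every T0 array, as for 17.7% of gene names. No gene had such a separation in either direction in the validation set, where 0.758% of gene names were lower and 1.45% higher without overlap. When horse 47 at T0 was left out, 3 genes, *KLRK1*, *GZMB* and *NKG7*, were lower without overlap (6.3% of gene names) and none was higher (6.58%). For *GZMB* this held for the LOC100033969 probe and not for the probe that the array names *GZMB*.

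The experimental calls rested on few horses and on the filter for dim probes. With no filter, 0 of the 10 genes and 46 of all gene names were called. Without horse 2, 0 of the 10 genes were called, and without horse 32, 3 were. The count was 6 without horse 41, and 3 when the horse was not used as a block. In that set, the share of all calls that were higher was 60.9% with the percentile scaling, and 49.5% with quantile normalization, 48.2% with normexp background correction and 47.5% in the deposited series values. In the validation set, the count of genes called lay between 7 and 9 whichever horse was left out, and was 7 without both horse 47 and horse 34. It rose to 9 without horse 4 at T1.

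**Figure D1:**
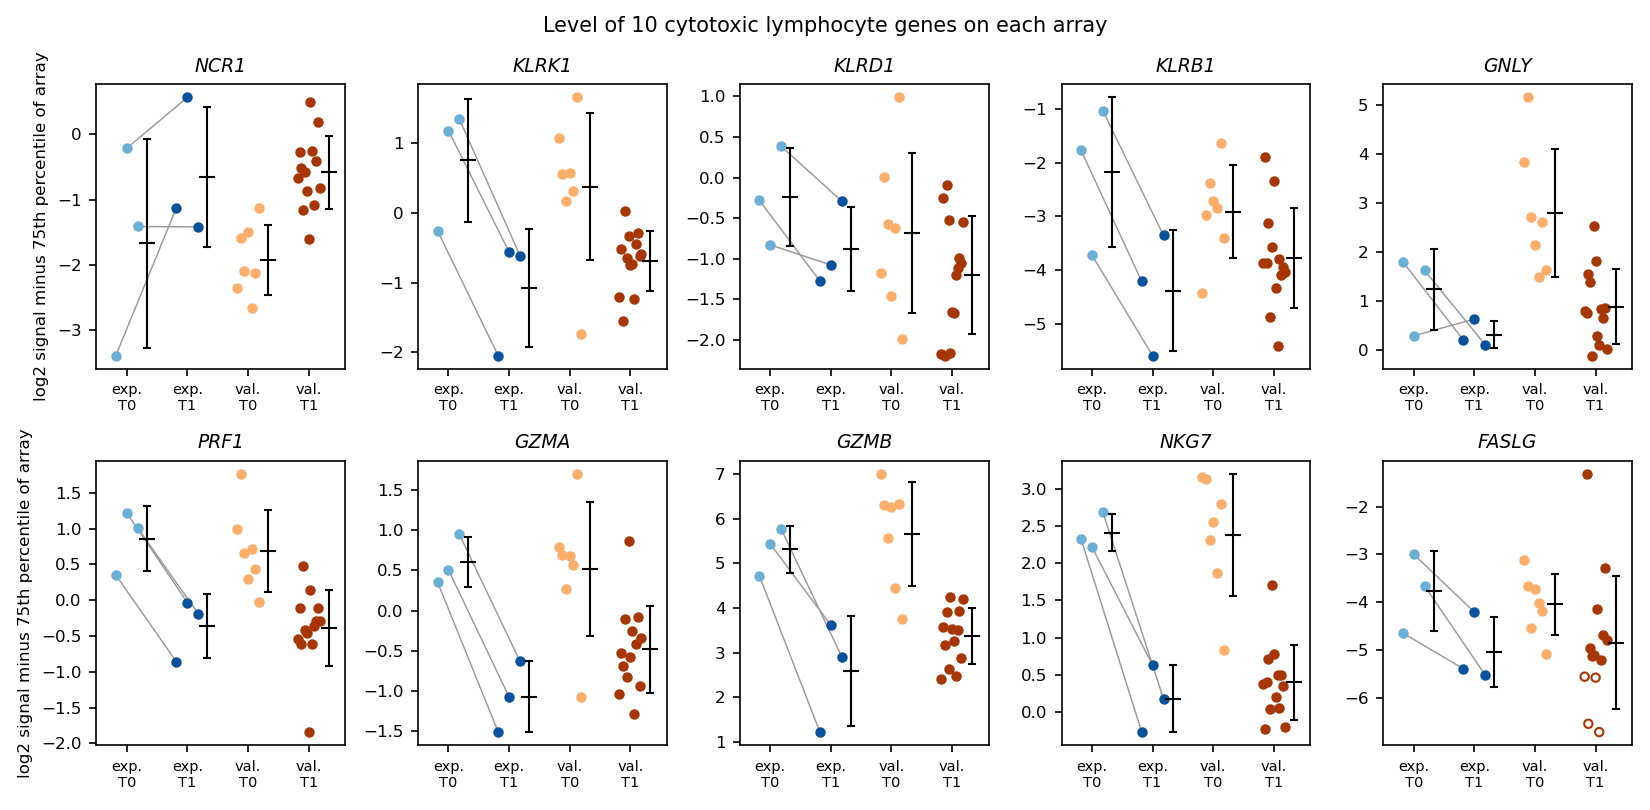
Level of each of the 10 genes on every array (y axis, log2 signal relative to the 75th percentile of its array) in the experimental and validation sets at T0 and T1. Each point is 1 horse, filled where the probe was well above background and open where it was not, bars give the mean ± SD, and grey lines join the arrays of 1 horse. *GZMB* and *NKG7* are lower at T1 in all 3 joined horses, and *NCR1* is the gene whose validation T1 values lie mostly above those at T0.

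Among the receptors, *NCR1* stood against the others. It encodes NKp46, an activating receptor that marks NK cells. Its level in the validation set at T0 ran from −2.66 through a median of −2.11 to −1.13, and at T1 from −1.61 through −0.58 to 0.50. The groups overlapped, but the T1 median lay above every T0 value. The difference was 2.54-fold higher at T1 (95% CI 1.77 to 3.63, n = 7 and 13, adjusted p = 0.000244).

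*NCR1* in the experimental set differed widely among the horses already at rest. Its level was −3.40 in horse 2, −0.21 in horse 32 and −1.42 in horse 41 at T0, and −1.12, 0.57 and −1.42 at T1. It was higher at T1 by 2.28 in horse 2 and by 0.78 in horse 32, and differed by −0.01 in horse 41. The log2 change of 1.02 ± 0.44 (SE, n = 3 horses) did not pass the threshold (adjusted p = 0.165), and it did without horse 41 (1.53, adjusted p = 0.0223).

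*KLRK1*, which encodes the activating receptor NKG2D, was lower in both sets. Its level in the experimental set fell from −0.26 to −2.05 in horse 2, from 1.18 to −0.56 in horse 32 and from 1.35 to −0.61 in horse 41, a 3.56-fold decrease (95% CI 2.19 to 5.80, adjusted p = 0.0123). Every T1 value lay below every T0 value. The call was lost without horse 2 (adjusted p = 0.0812), without horse 32 (adjusted p = 0.0674) and with no block (adjusted p = 0.0693).

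Validation levels of *KLRK1* ran from −1.74 through 0.56 to 1.66 at T0 and from −1.55 through −0.62 to 0.03 at T1. It was 2.09-fold lower at T1 (95% CI 1.33 to 3.26, adjusted p = 0.00874). The single T0 value below the T1 range was that of horse 47, and without that horse the groups did not overlap. The second *KLRK1* probe of the array gave changes of −1.98 and −1.15 in the experimental and validation sets, against −1.83 and −1.06.

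*KLRD1* encodes CD94, the partner of the NKG2 receptors that read HLA-E-like molecules, and it did not pass the threshold in either set. Its level went, in the experimental set, from −0.28 to −1.27, from −0.83 to −1.08 and from 0.39 to −0.29 in horses 2, 32 and 41, so the sign was the same in each horse. The log2 change was −0.64 ± 0.32 (SE, adjusted p = 0.223). Validation levels ran from −1.99 through −0.62 to 0.99 at T0 and from −2.19 through −1.12 to −0.09 at T1. The change of −0.51 ± 0.36 (adjusted p = 0.263) had a 95% interval of −1.26 to 0.23, which includes a 2-fold decrease as well as no change.

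*KLRB1* encodes CD161, a lectin-like receptor of NK cells and of some T cells. Experimental levels fell from −1.77 to −4.21 in horse 2, from −3.72 to −5.60 in horse 32 and from −1.03 to −3.36 in horse 41. The decrease was 4.65-fold (95% CI 2.82 to 7.67, adjusted p = 0.00647), although horse 32 at rest was lower than horse 41 after the ride. With normexp background correction the log2 change was −1.03 (adjusted p = 0.0526), and in the deposited series values −1.03 (adjusted p = 0.0591), a shift of over 1.5 times. It also missed the threshold without horse 2 (adjusted p = 0.062) and with no block (adjusted p = 0.0987).

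*KLRB1* in the validation set ran from −4.44 through −2.85 to −1.62 at T0 and from −5.41 through −3.87 to −1.90 at T1. The groups overlapped over most of their range. The change of −0.88 ± 0.40 did not pass the threshold (adjusted p = 0.0796), and it did when horse 13 at T0 (−1.13, adjusted p = 0.0261), horse 4 at T1 (−1.03, adjusted p = 0.0253) or horse 21 at T1 (−0.995, adjusted p = 0.0395) was left out.

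Of the granule genes, *GZMB* changed the most in both sets. Granzyme B is the protease of the granule that starts apoptosis in the target by cleaving caspases. Measured by the LOC100033969 probe, its level fell from 4.73 to 1.22 in horse 2, from 5.44 to 3.62 in horse 32 and from 5.77 to 2.91 in horse 41. The decrease was 6.62-fold (95% CI 3.604 to 12.2, adjusted p = 0.00629), and each T1 value lay below each T0 value. It was lost without horse 2 (−2.34, adjusted p = 0.0606).

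The same probe, in the validation set, ran from 3.76 through 6.25 to 7.003 at T0 and from 2.41 through 3.51 to 4.25 at T1. The T1 level was 4.92-fold lower (95% CI 2.89 to 8.36, adjusted p = 6.53e-05). Horse 47 held the lowest T0 value, and without it the groups did not overlap. On the array's own *GZMB* probe they still did, with 3.43 in horse 29 at T0 and 3.58 in horse 19 at T1. The array's own *GZMB* probe, which differs at the 4 capital positions printed above, gave log2 changes of −2.58 ± 0.36 (adjusted p = 0.00575) and −2.24 ± 0.39 (adjusted p = 0.000125) in the experimental and validation sets. Its values followed those of LOC100033969 with r = 0.99 over the 26 arrays after group means were removed, which for near-identical probes says nothing of whether they read 1 transcript or 2. A second *GZMB* probe, of unrelated sequence, gave −3.01 and −2.24.

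The array describes 6 further gene names as granzymes or their relatives, picked by description after the data were seen. All 6 were lower at T1 in the validation set and 5 of 6 in the experimental set, where 23.9% and 3.95% of all gene names were. LOC100055651 changed the most of the 6. Its level ran from −0.27 through 0.38 to 1.401 at T0 and from −4.80 through −3.38 to −1.92 at T1 in the validation set, so the groups did not overlap. The log2 change was −4.06 ± 0.32 (adjusted p = 6.49e-08), and −4.34 ± 0.69 (adjusted p = 0.00915) in the experimental set. Its probe shares runs of at most 15 bases with the *GZMB* probe.

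The other granzyme-like names followed in smaller steps. LOC100050711 changed by −2.67 ± 0.30 in the validation set and by −3.45 ± 0.61 in the experimental set, LOC100053132 by −2.44 ± 0.39 and −2.96 ± 0.31, and LOC100053869 by −2.38 ± 0.42 and −2.63 ± 0.33. *GZMK*, a granzyme of memory T cells, changed by −1.21 ± 0.32 (adjusted p = 0.00472) and −1.38 ± 0.31 (adjusted p = 0.0296). LOC100052582 changed by −0.72 in each set, which passed the threshold in the validation set (adjusted p = 0.0476) and not in the experimental set (adjusted p = 0.16).

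**Figure D2:**
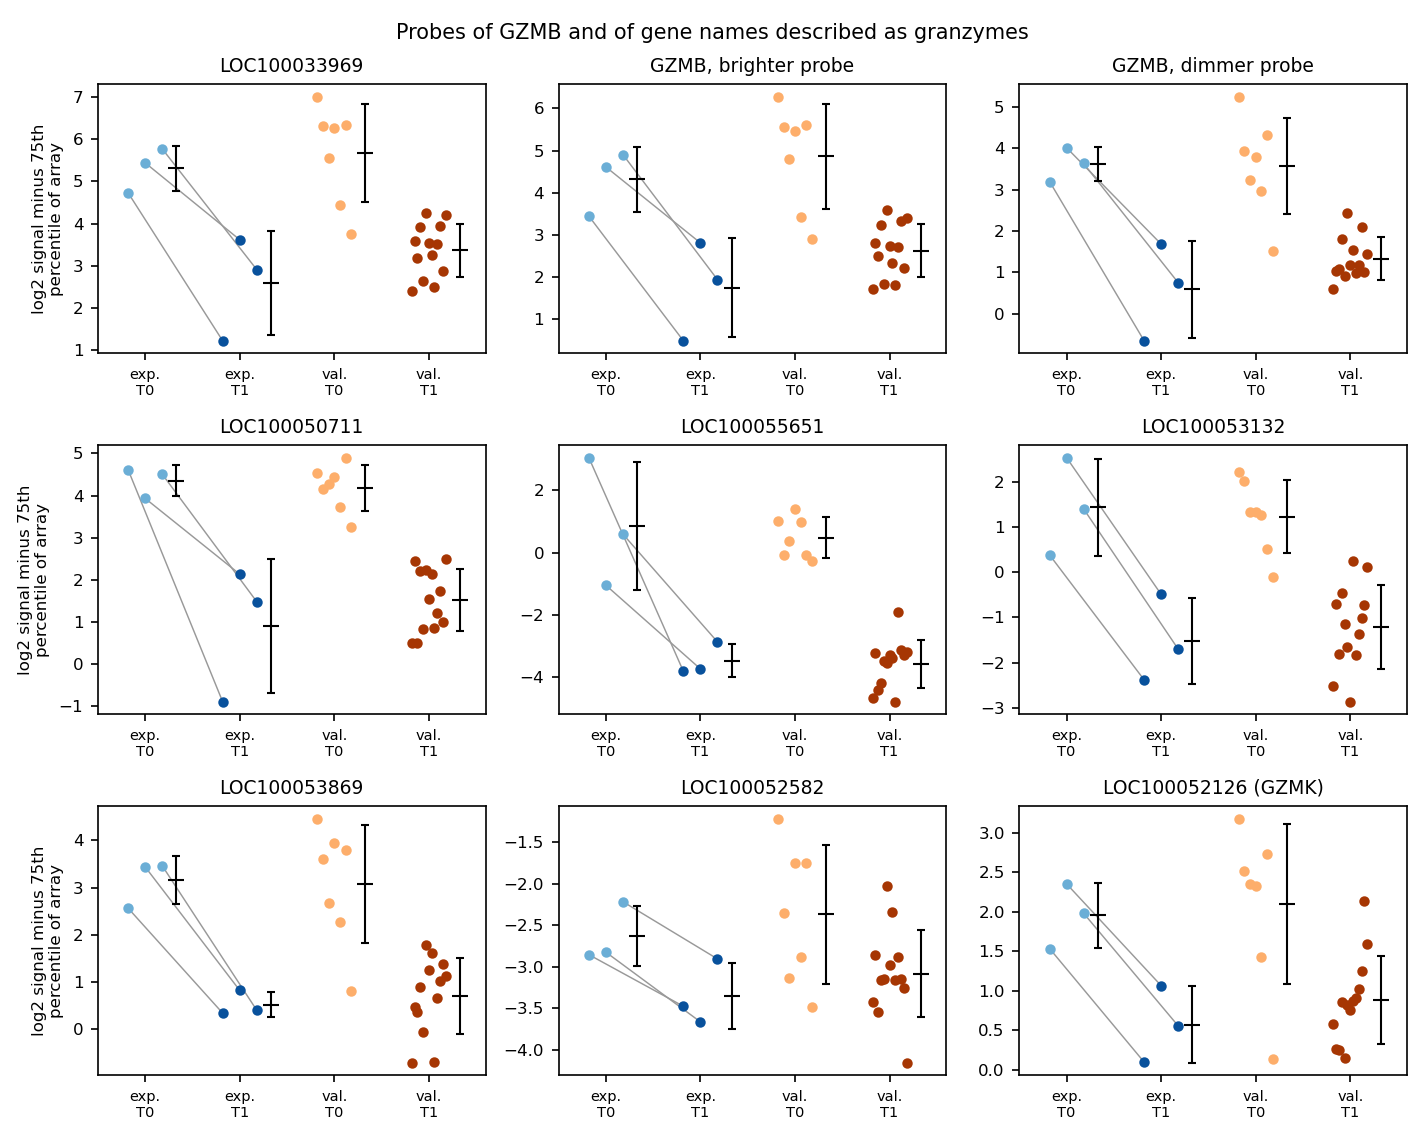
Levels of the granzyme B probes and of the other gene names described as granzymes on each array (y axis, log2 signal relative to the 75th percentile of its array), by set and time. Points are single horses and bars the mean ± SD, and LOC100055651 is a panel in which no validation T1 array, the highest at −1.92, reaches the lowest T0 array at −0.27.

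*GZMA* encodes granzyme A, a protease with another cleavage preference than granzyme B. Its level fell from 0.35 to −1.51, from 0.50 to −1.07 and from 0.95 to −0.63 in horses 2, 32 and 41. The changes of the 3 horses lay between −1.86 and −1.58 on the log2 scale, and the decrease was 3.19-fold (95% CI 1.95 to 5.19, adjusted p = 0.0169). It did not pass without horse 2 (adjusted p = 0.108) or horse 32 (adjusted p = 0.0893). Validation levels ran from −1.07 through 0.67 to 1.70 at T0 and from −1.28 through −0.53 to 0.86 at T1, 1.99-fold lower (95% CI 1.315 to 3.01, adjusted p = 0.00804). With scan day as a term the change was −0.86 and no longer passed (adjusted p = 0.0776).

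*PRF1* encodes perforin. Its level fell in the experimental set from 0.35 to −0.86 in horse 2, from 1.22 to −0.03 in horse 32 and from 1.01 to −0.19 in horse 41, so that the 3 changes lay between −1.25 and −1.20. The decrease was 2.33-fold (95% CI 1.44 to 3.78, adjusted p = 0.0419) and missed the threshold when any 1 of the horses was left out (adjusted p between 0.0548 and 0.177). Validation levels ran from −0.03 through 0.66 to 1.76 at T0 and from −1.84 through −0.36 to 0.47 at T1. That was 2.11-fold lower (95% CI 1.48 to 3.01, adjusted p = 0.00142), with groups that overlapped.

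*NKG7* encodes a membrane protein of the cytotoxic granule. It had the smallest spread at rest in the experimental set of the 10 genes, with levels of 2.32, 2.22 and 2.68 in horses 2, 32 and 41, and went to −0.26, 0.63 and 0.18 after the ride. The decrease was 4.67-fold (95% CI 2.72 to 8.02, adjusted p = 0.00853), with no overlap. Without horse 2 it was −2.04 (adjusted p = 0.0787).

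*NKG7* in the validation set ran from 0.83 through 2.55 to 3.15 at T0 and from −0.22 through 0.38 to 1.71 at T1. It was 3.93-fold lower (95% CI 2.64 to 5.87, adjusted p = 1.88e-05). Horse 47 at T0 and horse 19 at T1 made the overlap, and the groups separated without horse 47.

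*GNLY*, which encodes the membrane-lysing protein granulysin, was lower in the validation set. Its level ran from 1.502 through 2.61 to 5.16 at T0, with the highest value in horse 14, and from −0.11 through 0.81 to 2.53 at T1. The difference was 3.78-fold (95% CI 2.05 to 6.97, adjusted p = 0.00109) and the groups overlapped. Experimental levels went from 1.81 to 0.21 in horse 2 and from 1.63 to 0.11 in horse 41, but from 0.29 to 0.64 in horse 32, which had the lowest value at rest. The log2 change of −0.93 ± 0.43 did not pass (adjusted p = 0.189), nor did −1.56 without horse 32 (adjusted p = 0.107).

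*FASLG* was the 1 gene of the 10 that was not well above background on every array. FAS ligand is made at low amounts until a killing cell is activated. Experimental levels went from −4.64 to −5.39, from −3.00 to −4.20 and from −3.66 to −5.52 in horses 2, 32 and 41. The change of −1.27 ± 0.34 did not pass the threshold (adjusted p = 0.0506). It was smaller with normexp background correction (−0.33, adjusted p = 0.222) and in the deposited series values (−0.31, adjusted p = 0.23), and passed when the filter for dim probes was set to all 6 arrays (adjusted p = 0.0196).

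*FASLG* in the validation set ran from −5.08 through −4.01 to −3.12 at T0 and from −6.71 through −5.09 to −1.32 at T1, where 9 of 13 arrays were well above background. The highest value, of horse 4 at T1, lay above every T0 value. The change was −0.80 ± 0.51 (adjusted p = 0.221), and −1.09 without horse 4 (adjusted p = 0.0227). The gene has 5 overlapping probes, and with their mean in place of the brightest it passed in both sets, at −1.51 (adjusted p = 0.0446) and −1.09 (adjusted p = 0.00212). Normexp background correction brought the validation change to −0.05 (adjusted p = 0.851).

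**Figure D3:**
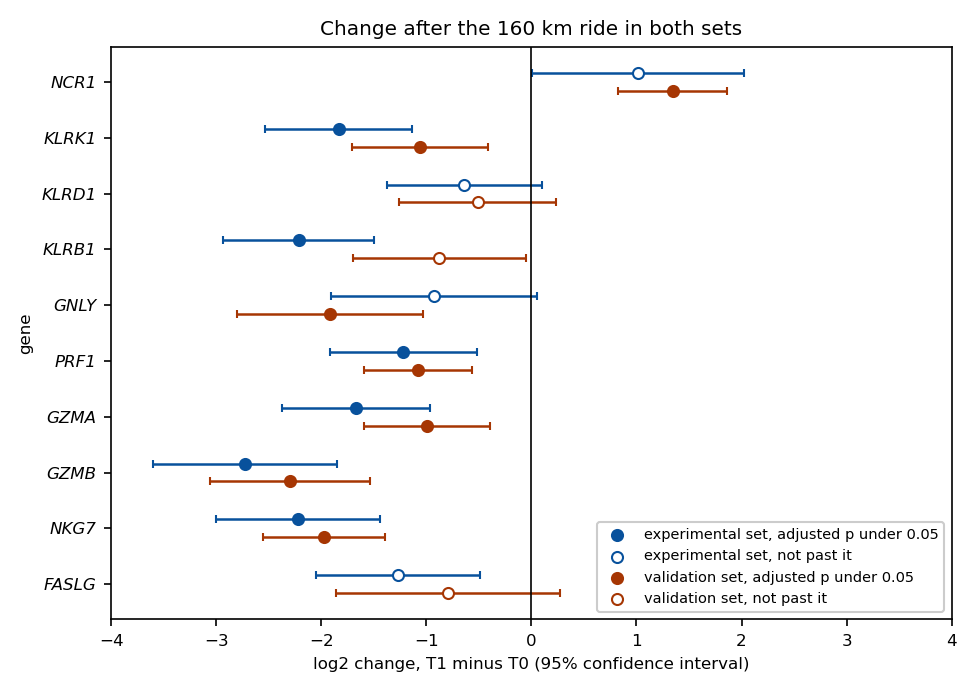
Log2 change from T0 to T1 of each of the 10 genes (x axis) in the experimental and validation sets, with points for the limma estimate and lines for its 95% interval. Intervals for *GZMB* and *NKG7* lie well below 0 in both sets. That of *NCR1* lies above 0 in the validation set, and in the experimental set, where it was not called, its lower end is 0.009.

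The changes of the sets were then set against each other. No gene differed between the sets with an adjusted p under 0.05, among the 10 genes or among the 17889 gene names tested (limma interaction), and 99 of the latter (0.553%) had an unadjusted p under 0.05. For the 10 genes the unadjusted p ran from 0.148 for *KLRB1* to 0.861 for *KLRD1*. The intervals were wide. That of *KLRB1*, whose decrease was smaller in the validation set by 1.34, ran from −0.51 to 3.19, and that of *GNLY*, whose decrease was larger there by 0.99, from −2.71 to 0.72. *PRF1* had the narrowest interval, from −0.88 to 1.16.

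Arrays were scanned on 8 days and lay on 18 slides. Within the validation set 5 scan days held arrays of both times, and *GZMB*, *NKG7*, *PRF1* and *FASLG* were lower at T1 within each of the 5. *NCR1* was higher at T1 within each. *GNLY*, *GZMA*, *KLRK1*, *KLRD1* and *KLRB1* were lower in 4 of 5. Within the 3 slides that held both times, *NCR1* was higher in each and *PRF1*, *FASLG* and *KLRB1* lower in each, whereas the other 6 genes were lower in 2 of 3. On the slide that held the T0 array of horse 47 and the T1 array of horse 19, *GZMB*, *NKG7*, *GNLY*, *KLRK1* and *GZMA* were higher at T1, by 0.49 for *GZMB* to 1.93 for *GZMA*. *KLRD1* was higher by 0.47 on the slide of horse 18 at T0 and horse 46 at T1. In the experimental set the 2 scan days and 1 slide with both times held different horses. That slide held the same pair of arrays as 1 of the scan days. Within each of them the 9 genes other than *NCR1* were lower. *NCR1* was higher by 1.98 on the slide and its scan day and lower on the other scan day, with a difference of −0.91.

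The spread among horses at 1 time point was compared with that of all gene names. Among the 7 validation horses at T0, the SD of each of the 10 genes was above the median SD of 0.43 of all gene names tested, from the 69.0th percentile for *NCR1* to the 98.4th for *GNLY*, with *GZMB* at the 97.6th and *KLRK1* at the 96.6th. Horse 47 carried part of this spread. Without it all 10 SDs were still above the median, then 0.38, but that of *KLRK1* went from 1.06 to 0.55 (75.8th percentile), that of *GZMA* from 0.83 to 0.48 (67.1st) and that of *NKG7* from 0.82 to 0.496 (68.8th), while that of *GNLY* stayed at 1.31 against 1.304. Among the 13 at T1, 9 of 10 were above the median SD, and *KLRK1* was at the 49.8th percentile. Highest at T1 was *FASLG*, at the 99.0th. At T1 horse 19 held the highest level of 4 genes and horse 34 the lowest of 3.

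Within groups the genes did not all vary together. After group means were removed, the correlation over the 26 arrays had a median of 0.31 over the 45 pairs, which share arrays and their scaling. *KLRK1*, *GZMA* and *GZMB* formed the closest trio, with r of 0.81 for *KLRK1* and *GZMA*, 0.80 for *KLRK1* and *GZMB* and 0.76 for *GZMA* and *GZMB*. *NKG7* and *GNLY* had r = 0.75. With the mean of the other 9 genes, *KLRK1* had r = 0.83 and *NCR1* r = −0.07, and the lowest pair was *NCR1* with *KLRB1* at −0.46.

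**Figure D4:**
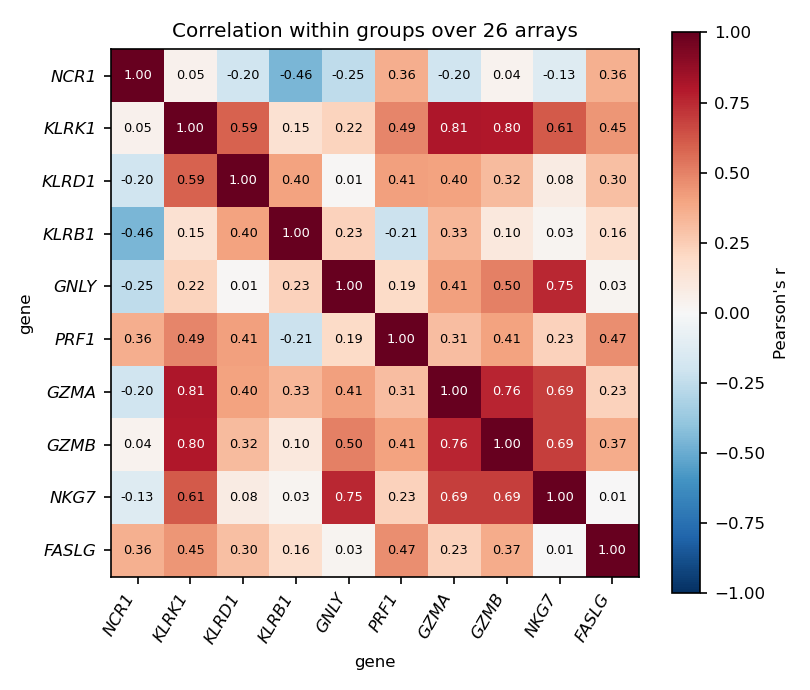
Pearson correlation between each pair of the 10 genes over 26 arrays after the mean of its group was taken from each value, drawn as a colour scale from −1 to 1. *KLRK1*, *GZMA*, *GZMB* and *NKG7* show positive values with each other, whereas *NCR1* is near or below 0 with all but *PRF1* and *FASLG*, at 0.36 each.

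Of the 17889 gene names correlated in the same way with the mean of the standardised 10, the median r was −0.03 and the 95th percentile 0.43. The 6 named genes with the highest r were *CCL5* (0.89), *C5H1orf21* (0.83), *PLEKHA1* (0.78), *TGFB2* (0.76), *CCDC191* (0.74) and *TRAT1* (0.73). *CCL5*, a chemokine that cytotoxic cells store, changed by −0.99 ± 0.29 in the validation set (adjusted p = 0.00881) and −1.19 ± 0.34 in the experimental set (adjusted p = 0.06). *TGFB2* and *CCDC191* did not pass the threshold in either set, with changes between −0.31 and 0.01.

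The wider machinery of cytotoxic cells was read from 8 lists of 108 genes, of which 97 were on the array. Of the 89 tested in the validation set, 43 were lower and 18 higher, and in the experimental set 21 of 90 were lower and 7 higher. Among all gene names tested, 23.9% were lower and 20.3% higher in the validation set and 3.95% and 6.16% in the experimental set, and the counts of each list below stand beside these shares.

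Receptors of these cells were mostly lower. Of 12 tested in the validation set, 9 were lower and none higher, with a median change of −1.33, and in the experimental set 8 of 12 and none, with a median of −1.40. *NCR3*, the activating receptor NKp30, was the leading one, from a mean level of 3.003 at T0 to 0.95 at T1 in the validation set (−2.06 ± 0.23, adjusted p = 3.33e-06) and by −2.10 ± 0.33 in the experimental set (adjusted p = 0.00861). It thus moved in the opposite direction to *NCR1*, which belongs to the same family of natural cytotoxicity receptors. *CD2*, an adhesion receptor, changed by −1.67 ± 0.25 and −1.71 ± 0.32, *CD226*, the receptor DNAM-1, by −1.48 ± 0.22 and −1.26 ± 0.31, and *KLRG1*, an inhibitory receptor of differentiated cells, by −1.45 ± 0.26 and −1.52 ± 0.39, in the validation and experimental sets, and each passed the threshold in both. Of the 10 gene names that the array describes as killer cell receptors, 7 were tested, and 2, those of *KLRG1* and *KLRF1*, were lower in each set, which in the validation set is near the 23.9% of all gene names. The Ly49 names *LY49A*, *LY49C*, *LY49E* and *LY49F* and *KIR3DL* did not pass in either set, and the signs of the Ly49 changes turned under other settings.

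The granule list held genes of both directions. Of 13 genes tested in the validation set, 4 were lower and 5 higher, where 23.9% of all gene names were lower and 20.3% higher. The 4 lower are near that share. In the experimental set 2 of 13 were lower and 3 higher, where 3.95% and 6.16% of all gene names were. *CTSW*, a protease found in NK and cytotoxic T cells, fell by 2.05 ± 0.33 on the log2 scale (adjusted p = 6.85e-05) in the validation set and by 2.27 ± 0.33 (adjusted p = 0.00709) in the experimental set. *SERPINB9*, which protects a killing cell from its own granzyme B, changed by −1.39 ± 0.28 (adjusted p = 0.000422) and −1.43 ± 0.39 (adjusted p = 0.05004, not past the threshold). *RAB27A*, a GTPase for granule release that many leukocytes share, was higher by 1.402 ± 0.24 (adjusted p = 0.000106) and 1.46 ± 0.36 (adjusted p = 0.0395).

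Signalling genes downstream of the receptors had both directions too, with 7 of 17 lower and 5 higher in the validation set and 5 of 18 lower and none higher in the experimental set. Lower were *LCK* (−1.44 ± 0.19, adjusted p = 1.09e-05) and *ZAP70* (−1.32 ± 0.34, adjusted p = 0.00327), kinases of the T cell receptor, *CD247*, its zeta chain (−1.61 ± 0.29, adjusted p = 0.000183), and *SH2D1A*, the adaptor SAP (−1.39 ± 0.20, adjusted p = 1.86e-05), all given for the validation set. In the experimental set *LCK*, *CD247* and *SH2D1A* were lower as well, and *ZAP70* changed by −1.24 ± 0.44 (adjusted p = 0.101).

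Among 13 transcription factors, 7 were lower and 3 higher in the validation set, and 1 was lower and 2 higher in the experimental set. The 3 higher in the validation set and the 1 lower in the experimental set are near the shares of all gene names (20.3% and 3.95%). *ZNF683*, the factor Hobit of resident and effector lymphocytes, had changes of −3.01 ± 0.42 (adjusted p = 1.83e-05) and −2.99 ± 0.39 (adjusted p = 0.00465) in the validation and experimental sets. *NFIL3*, which NK cell development needs and which myeloid cells also use, was higher by 1.69 ± 0.27 (adjusted p = 6.37e-05) and 1.90 ± 0.38 (adjusted p = 0.0211). *ETS1* (−1.38 ± 0.22) and *GATA3* (−1.28 ± 0.31) were lower in the validation set.

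Cytokines and chemokines were lower in 4 of 7 and higher in 1 in the validation set, and lower in 1 of 7 in the experimental set. Besides *CCL5*, these were *LTA* (−1.09 ± 0.18), *TNFSF10*, the death ligand TRAIL (−0.93 ± 0.22), and *TNF* (−0.87 ± 0.30), and *TNFSF10* was the 1 that passed in the experimental set (−1.36 ± 0.34, adjusted p = 0.0399). Among cytokine receptors, 4 of 9 were lower and 2 higher in the validation set, and 1 lower and 1 higher in the experimental set. The 2 receptors higher in the validation set are near the share of all gene names (20.3%). *IL21R* (−1.73 ± 0.35) and *IL2RA* (−1.46 ± 0.26) were lower in the validation set, and the interleukin 18 receptor chains *IL18R1* (1.54 ± 0.25) and *IL18RAP* (1.13 ± 0.33) higher. *IL2RA* and *IL18R1* passed in the experimental set too.

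Homing receptors were lower in 6 of 10 and higher in 2 in the validation set, and lower in 3 and higher in 1 of 10 in the experimental set. The 2 higher in the validation set are near the share of all gene names (20.3%). The fractalkine receptor *CX3CR1* (−1.53 ± 0.27), *CXCR3* (−1.49 ± 0.34) and the integrin *ITGA4* (−1.40 ± 0.24) were lower in the validation set, while *ITGB2*, the integrin chain common to leukocytes, was higher (1.33 ± 0.25). These 4 passed in the experimental set too. Of 8 genes of the death receptor and caspase path in target cells, 2 were lower in the validation set, *BID* (−0.55 ± 0.13) and *CASP10* (−0.51 ± 0.20), and none passed in the experimental set. A count of 2 in 8 is near the 23.9% of all gene names that were lower in the validation set.

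Markers of T and B cells were mostly lower, like most of the 10 genes. Lower in the validation set were both CD8 T cell markers, 7 of 8 T cell, all 4 CD4 T cell and all 7 B cell markers, and in the experimental set 2 of 2, 4 of 8, 2 of 4 and 3 of 7. Of all gene names tested, 23.9% were lower in the validation set and 3.95% in the experimental set. *CD8A* changed by −1.47 ± 0.27 in the validation set, *CD3E* by −1.71 ± 0.42, *CD4* by −1.69 ± 0.30 and *CD79A* by −1.67 ± 0.42. *CD3E* had the largest decrease of the 8 T cell markers. Their median change was −1.16 and the smallest −0.12, for *CD6*, beside a median of −1.03 for the 10 cytotoxic genes. Among the cytotoxic genes *KLRK1*, *PRF1* and *GZMA* changed by between −1.08 and −0.99 in that set, and *GZMB* by −2.30. The summed signal of the T cell markers, in multiples of the array's 75th percentile, ran from 17.9 through 36.96 to 39.5 at T0 and from 11.5 through 15.9 to 23.1 at T1. That of the 10 cytotoxic genes ran from 20.98 through 91.8 to 158 at T0 and from 10.9 through 17.5 to 32.3 at T1 in the validation set, and from 39.6 through 56.9 to 72.8 and from 6.42 through 13.2 to 19.5 in the experimental set. Bright probes weigh most in such a sum. The LOC100033969 probe of *GZMB* was the brightest of the 10 on every array, with validation medians of 6.25 at T0 and 3.51 at T1. The sum thus follows mainly that probe and is no measure of the 10 genes alike.

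Markers of neutrophils and monocytes were higher. Of the markers in the validation set, 7 of 8 neutrophil and 3 of 5 monocyte ones were higher and none lower, and in the experimental set 6 of 8 and 3 of 5. Of all gene names tested, 20.3% were higher in the validation set and 6.16% in the experimental set. *IL1R2*, the decoy receptor for interleukin 1, was higher by 6.06 ± 0.62, *S100A9* by 2.69 ± 0.37, *CD163* by 4.19 ± 0.47 and *CD14* by 1.61 ± 0.27, all in the validation set. The summed neutrophil signal ran from 134 through 166 to 698 at T0 and from 492 through 972 to 2261 at T1, and in the experimental set from 81.7 through 188 to 483 and from 773 through 981 to 1086. None of the 3 platelet markers tested passed in either set, and 1 of 4 erythroid markers, *HBB*, was higher in both (2.25 ± 0.69 in the validation set). A count of 1 in 4 is near the 20.3% of all gene names that were higher in the validation set. The part of these cells in the changes of the 10 genes was not tested.

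**Figure D5:**
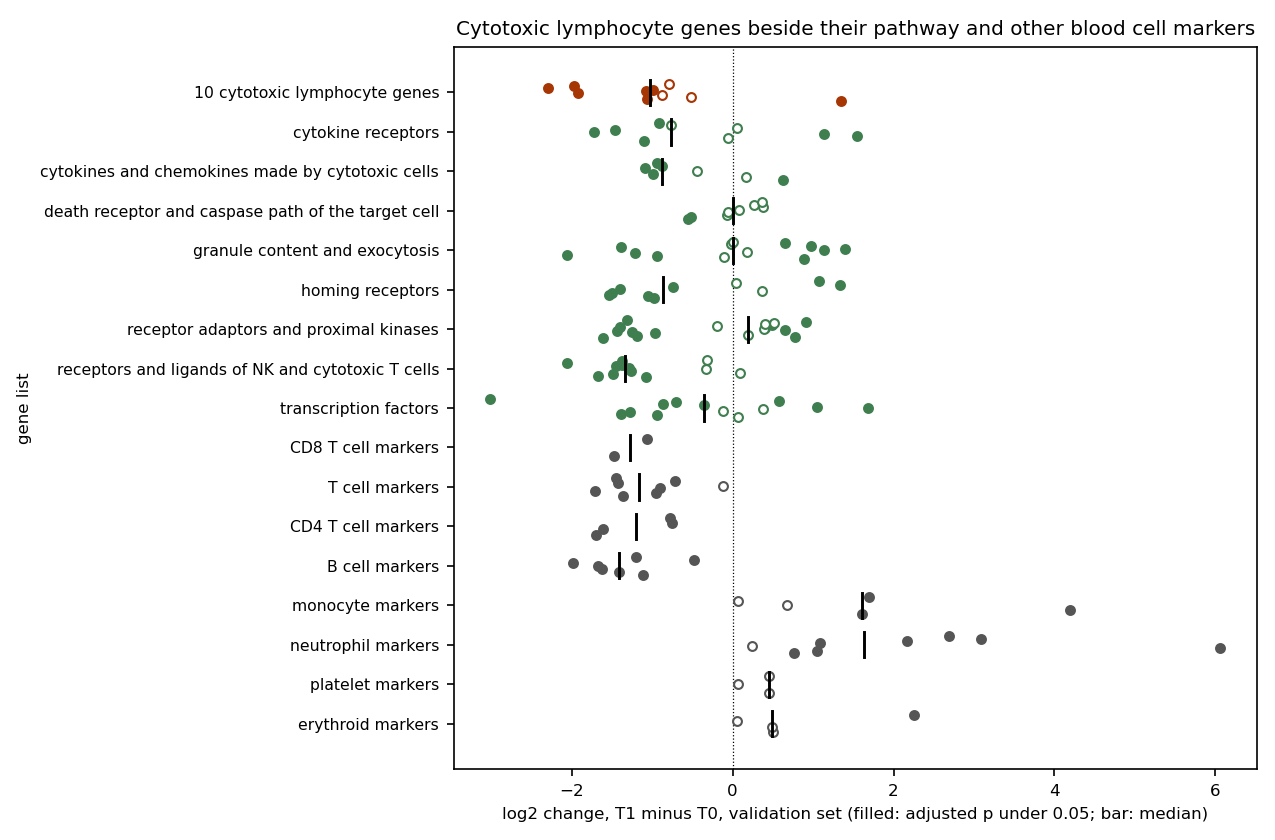
Log2 change from T0 to T1 in the validation set (x axis) of the genes of each cytotoxic pathway list and each blood cell marker list, 1 point per gene tested, filled where the adjusted p was under 0.05. Receptor, T cell and B cell lists lie mostly below 0, with a median of −1.33 for the receptors, and the neutrophil markers mostly above it, with a median of 1.63.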

How the data were processed

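Whole blood RNA of 26 samples was hybridised to 1-colour Agilent horse arrays of 45220 spots with 60-base probes. Per the labels and the file headers, the authors read each array with Feature Extraction 10.7.3.1, which subtracted the background, and deposited the processed signal intensity of each spot, together with a series table of normalized log2 values whose exact steps were not stated. The series table was matched to the arrays by feature number and used only as an alternative. Its columns had medians between 7.09 and 7.10 and ranked the spots of each array as the median signal minus local background did, so its scale and direction were taken as those of log2 signal.

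From the deposited intensity, log2 was taken with no pseudocount and the 75th percentile of each array was subtracted. Control spots and 386 outlier spots were left out and spots of 1 probe were averaged, and each gene name was represented by its probe of highest mean level. Of the 24415 gene names, 16401 had 1 probe. Gene names well above background on at least 3 of 6 (experimental set), 7 of 20 (validation set) or 7 of 26 arrays (difference) were tested with limma 3.58.1 in R 4.3.3, two-sided, with Benjamini-Hochberg adjustment over all gene names tested and a threshold of 0.05. Horse was a fixed block in the experimental set, since the labels give the same animals at T0 and T1 (the correlations of their deviations were −0.01, 0.21 and 0.19 for horses 2, 32 and 41), and a random block in the difference. Each horse has 1 array per time. In the validation set and the difference, p-values measure the spread between horses and arrays. In the experimental set they measure the spread of the change among the 3 horses. Precision is limited by how many arrays there are.

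The 10 genes and all lists were chosen with earlier results of these data known. The text names the 10 genes, up to 4 genes per list with the largest validation change among those past the threshold, the markers *CD3E*, *CD8A*, *CD8B*, *CD4*, *CD79A*, *CD14* and *CSF3R*, and the 6 genes of highest correlation. Granzyme and killer cell receptor relatives were added by description after the data were seen. The fits were tested on simulated data. Alternatives were quantile normalization, normexp background correction with an offset of 50, the series values, other filters, the mean of probes, all arrays in 1 fit, the block left out, scan day, sex or slide as terms, and each horse left out. Of the list genes, 11 matched no gene name and were not analysed here.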

Additional observations from a re-analysis of the deposited data

Results flagged for a closer look

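None of the 10 cytotoxic genes had an array that stood apart by Dixon's criterion for 7 values (gap to the nearest value over the range, critical value 0.568), although horse 47 held the lowest T0 value of 7 of them. Among the 80 gene names tested in the T0 group of the validation set, 11 had an array past that value, and in each it was the T0 array of horse 47. Chance gives about 1 such group in 20, and genes of 1 array are not independent.

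Horse 47 at T0 was lowest for *NCR3* (0.716), *CX3CR1* (0.679), *THEMIS* (0.627), *LCK* (0.606), *CTSW* (0.578) and *CD4* (0.570), genes of cytotoxic and other T lymphocytes. It was highest for *S100A9* (0.693), *S100A12* (0.693), *IL1R2* (0.680), *IL18R1* (0.647) and *CSF3R* (0.642), of which 4 are on the neutrophil list. Its level of *NCR3* was 1.75 against 2.999 in the next horse, and that of *IL1R2* 5.56 against 1.38. The level of the neutrophil marker *CSF3R*, the receptor for granulocyte colony-stimulating factor, was 4.55 against 2.99, and its change over the set was 0.76 ± 0.31 (limma, adjusted p = 0.0492). Without this array and that of horse 34, 7 of the 10 cytotoxic genes were called in the validation set, as with them.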

How the results depend on the processing

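In the validation set, *NCR1*, *KLRK1*, *GNLY*, *PRF1*, *GZMB* and *NKG7* kept their direction and stayed past the threshold under all 31 alternatives run, with *GZMB* between −2.62 and −2.07 and *NKG7* between −2.24 and −1.67, whereas *GZMA* lost its call with scan day as a term. Leaving out 1 horse gave 7 to 9 of the 10 genes, 58 to 64 pathway genes and 6786 to 8315 of all gene names. Without horse 47 at T0 and horse 34 at T1, an alternative added after seeing the data, 8140 gene names, 7 of the 10 genes and 63 pathway genes were called, and with the gene name *GZMB* in place of LOC100033969, also added then, the counts of the 10 stayed at 6 and 7. Leaving horse 47 out of the T0 spread, likewise added, moved the median percentile of the SDs of the 10 genes from 91.9 to 74.2.

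The experimental counts depended on the processing. With no filter on dim probes 46 gene names, 0 of the 10 genes and 0 pathway genes were called, where more gene names were tested. A filter on every array gave 2816 gene names and 1 fit of all 26 arrays 2931. Leaving out 1 horse gave 173 to 2978 gene names, 0 to 6 of the 10 genes and 1 to 33 pathway genes. Without the replicate block (horse), 3 of the 10 genes were called, and *KLRK1*, *KLRB1* and *PRF1* were not. The difference between sets gave 0 calls under all 3 alternatives run. The cause of these shifts was not tested.

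Signs turned for genes that were not called in the set concerned. In the experimental set, *TGFB2* was −0.0146 with quantile normalization, −0.0320 with normexp, −0.0275 in the series values and −0.0018 with the mean of probes, and ran from −0.29 to 0.40 with 1 horse left out. *LY49F* was 0.0408 with quantile normalization and 0.23 with the mean of probes, and ran from −0.38 to 0.57 with 1 horse left out. With the mean of probes *LY49E* was −0.41 and *CASP10* 0.0095. With 1 horse left out *CCDC191* ran from −0.28 to 0.10 and *LY49C* from −0.54 to 0.40. In the validation set, *LY49E* was −0.87 with the mean of probes, where it passed the threshold, and *LY49A* 0.64 with scan day as a term. For the other 69 gene names, 543 of 754 results in the experimental set and 2035 of 2129 in the validation set kept direction and side of the threshold. Slide as a random block could not be fitted in the experimental set. With 3 horses a call there rests on the spread shared across genes.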
